A study of Mus musculus with 4 samples.

Results

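The genes examined are the 8 Fc receptor genes Fcgr1, Fcgr2b, Fcgr3, Fcgr4, Fcer1a, Fcer1g, Fcer2a and Fcmr, taken by symbol from the 31053 genes of a single-cell RNA count table. All 8 were detected. Their RNA was described across 18 classes of marrow cells that were named from marker genes other than these receptors. The cells were taken at 8 weeks of age from both ends of the tibia (proximal and distal) and were released with dispase, collagenase and trypsin. The labels describe 1 group: Col10a1Cre, a Rosa26-Tdtomato reporter, Irx3 +/Δ and Irx5 +/-, called the Irx3/5 heterozygous control, with no PTH given. Every cell therefore carries the Cre, the reporter and the heterozygous alleles, and no wild-type cells were included. Col10a1 is a gene of hypertrophic chondrocytes of the growth plate, and its promoter drives the Cre. Where the Cre acted among these cells was not analysed here. The 4 sample records were deposited as 1 matrix whose barcodes share 1 suffix, and the labels do not say whether they are 4 animals or repeat runs of 1 library. All values are therefore from 1 library without replicates, and no test between conditions could be made. Intervals in brackets have 95% confidence and reflect counting error alone.

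Fc receptors bind the constant tail of antibodies and so let blood cells respond to antigen that antibodies have already found. The activating receptors for IgG (Fcgr1, Fcgr3, Fcgr4) and the high-affinity IgE receptor (Fcer1a) have little or no signalling tail of their own and work through the common gamma chain encoded by Fcer1g, whose phosphorylated motifs recruit the kinase Syk. Fcgr2b is the inhibitory counterpart, whose cytoplasmic motif recruits phosphatases such as SHIP (Inpp5d). Fcer2a (CD23, a lectin-type IgE receptor) and Fcmr (a receptor for IgM) are known from B cells.

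Of the 8 genes, 6 lie on chromosome 1 of the mouse build GRCm38 (GENCODE M21). Fcgr2b (chr1:170958617-170976547, minus strand), Fcgr4 (chr1:171018920-171029761, plus strand), Fcgr3 (chr1:171051174-171064935, minus strand) and Fcer1g (chr1:171229572-171234365, minus strand) fall within 275.7 kb. Fcer1a (chr1:173221284-173227214, minus strand) lies farther along, and Fcmr (chr1:130865669-130880791, plus strand) lies apart. Fcgr1 is on chromosome 3 (chr3:96282909-96293969, minus strand) and Fcer2a on chromosome 8 (chr8:3681737-3694175, minus strand). Fcgr2b and Fcgr3 are close copies: 14.3% of the 31-base strings of Fcgr3 transcripts also occur in Fcgr2b, and 0.521% of those in their last 500 bases. For Fcgr2b the shares were 6.42% and 5.10%. No other pair of the 8 genes shared a 31-base string, so reads could be confused by sequence only between Fcgr2b and Fcgr3. Fcgr2b overlaps Gm38204 on the other strand, and Gm38204 had 0 UMIs in every class.

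The sequences just before the transcription starts are shown for the 3 activating IgG receptors, because these 3 share a string there and were all at least 2 times higher in the macrophage-like class than in all other cells. RefSeq promoter windows on GRCm38.p6 were found for all 8 genes, and the 250 bases before each start were searched on both strands. Capitals mark GAGGAA or its reverse complement TTCCTC, the core of the purine-rich box bound by the myeloid factor PU.1 and related factors. Bases that an annotated exon covers were left off, and the Fcgr3 window lies between exons of longer annotated Fcgr3 transcripts.
Fcgr1 (chr3:96293970-96294219, minus strand): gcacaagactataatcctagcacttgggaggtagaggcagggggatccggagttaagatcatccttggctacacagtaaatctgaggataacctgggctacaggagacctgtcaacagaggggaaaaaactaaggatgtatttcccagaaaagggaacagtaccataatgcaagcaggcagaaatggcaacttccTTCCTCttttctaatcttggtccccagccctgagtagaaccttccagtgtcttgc
Fcgr3 (chr1:171059404-171059626, minus strand): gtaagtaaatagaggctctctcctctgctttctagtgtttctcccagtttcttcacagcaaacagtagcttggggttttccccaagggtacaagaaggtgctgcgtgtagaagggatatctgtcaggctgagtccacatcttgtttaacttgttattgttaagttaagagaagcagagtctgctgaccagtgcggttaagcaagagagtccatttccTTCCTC
Fcgr4 (chr1:171018676-171018919, plus strand): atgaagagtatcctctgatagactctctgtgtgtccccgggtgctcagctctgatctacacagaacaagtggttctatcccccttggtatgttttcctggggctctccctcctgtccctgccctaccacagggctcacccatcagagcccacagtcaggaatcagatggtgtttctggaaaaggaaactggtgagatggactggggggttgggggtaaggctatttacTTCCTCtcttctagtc

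GAGGAA was in the window of 5 of the 8 genes (Fcgr1, Fcgr3, Fcgr4, Fcer1a and Fcmr) and in 23.3% of all 32851 windows, so its presence alone is common. Fcgr2b and Fcer1g lacked it but were also at least 2 times higher in the macrophage-like class. Fcer1a and Fcmr had it but were not higher in that class. The longer AGAGGAAG, which contains GAGGAA, was in 3.67% of all windows and in Fcgr1, Fcgr3 and Fcgr4. The longest string that any 2 of the 8 genes shared was TTCCTTCCTCTTTT, 14 bases long, in Fcgr1 and Fcgr3 and in 3 of the 32851 windows. In Fcgr3, this string and AGAGGAAG occur only in the window of 1 of its 2 listed starts. They run past the end of the stretch printed above, into bases that an annotated exon covers. The GAGGAA hit began 55 bases before the start in Fcgr1, 22 in Fcgr4, and 6 or 15 in Fcgr3, which has 2 listed starts. It began 36 bases before the start in Fcmr and 216 in Fcer1a. These matches describe letters in a window and are not measured binding sites.

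The matrix held 15014 barcodes and 90273806 UMIs (unique molecular identifiers, each counting 1 captured RNA molecule), with 500 to 80413 UMIs per barcode. After filtering and removal of 607 called doublets, 10400 cells with a median of 4825 UMIs remained, in 31 clusters. Of these, 26 clusters were named in 18 classes, and 5 clusters with 239 cells (2.30%) stayed unnamed. A name such as "basophil-like" means only that the cluster passed a rule on such markers, chiefly that at least 50% of those listed were 2 or more times higher than in all other cells. The labelled bone tissue was present as a small osteoblast-like class of 122 cells and an osteoclast-like class of 34 cells. Of the 122, a finer clustering described below placed 108 in a marrow stromal-like cluster. Nearly all other named cells were blood cells. Median depth differed widely between classes, from 1054.5 UMIs in the macrophage-like class to 20606.5 in the osteoclast-like class. Levels are therefore given as CPM (a gene's summed UMIs per 1000000 UMIs of the class), and shares of cells also after thinning each cell to 1000 UMIs.

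Fcer1g, the shared signalling chain, was the most widely detected of the 8, with 36565 UMIs in 45.3% of the 10400 cells. Fcgr3 had 5426 UMIs (24.9% of cells), Fcgr2b 2686 (17.4%) and Fcmr 2744 (11.4%). Fcgr4 had 1316 UMIs (9.48%), Fcer2a 687 (3.66%), Fcgr1 253 (1.65%) and Fcer1a 329, the last in only 48 cells. As a background for these shares, the late erythroid-like class (1204 cells, median 6160.5 UMIs), a lineage not known for these receptors, had a thinned share of 1.17% for Fcer1g. Its thinned shares for the other 7 genes were between 0% and 0.834%, with 5 cells left out as too shallow. The late erythroid markers alone made up 630876 CPM of this class. Less of its depth was thus left for other RNA than in the other classes, so this background is a low one. Cells with no UMI of any of the 8 genes made up 0% of the basophil- and natural killer-like classes, 0.161% of the classical monocyte-like class and 2.31% of the mature neutrophil-like class. They made up 88.5% of the late erythroid-like class and 70.9% of the small pre-B-like class. Median depths of the classes whose shares are given were 2544 UMIs (mature neutrophil-like), 7856 (classical monocyte-like), 4872 (basophil-like), 2812 (mature B-like) and 1054.5 (macrophage-like). Thinning left out 50, 7, 2, 17 and 103 cells of these classes in that order.

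**Figure D1:**
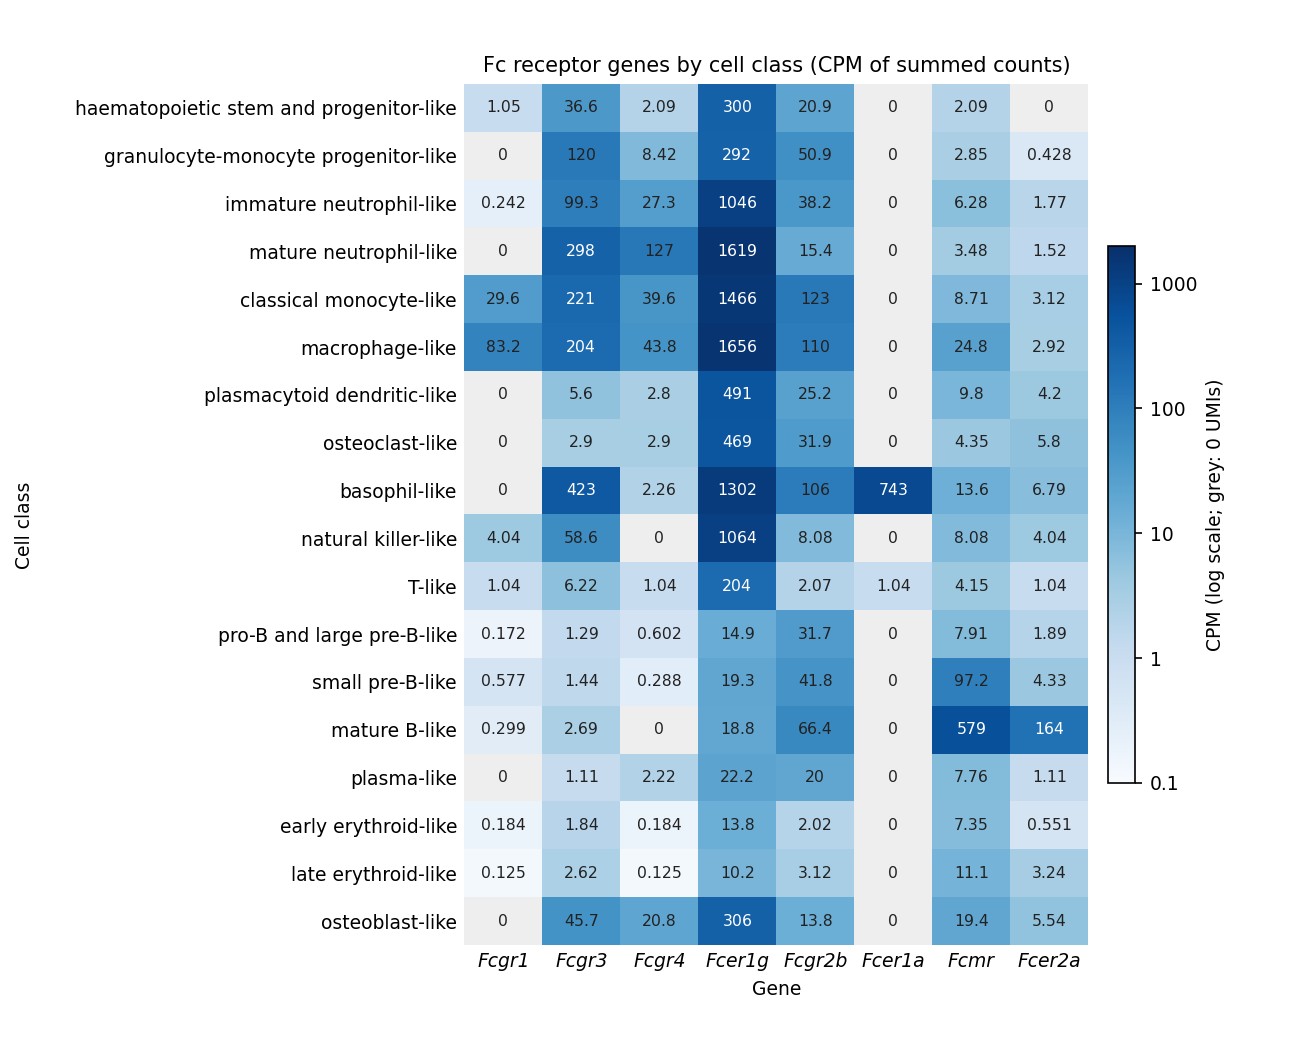
Level of each Fc receptor gene (columns) in each of the 18 cell classes (rows), in CPM of summed UMIs, with colour on a log scale and grey for 0 UMIs. Fcgr1 is at 83.2 and 29.6 CPM in the macrophage- and classical monocyte-like rows and at most 4.04 CPM elsewhere, Fcer1a stands out in the basophil-like row at 743 CPM, and Fcer2a and Fcmr stand out in the mature B-like row at 164 and 579 CPM. Levels can be compared down a column but not along a row.

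Fcer1g was highest in the macrophage-like class at 1656 CPM (1561 to 1755) and the mature neutrophil-like class at 1619 CPM (1583 to 1657). These intervals overlapped, so the order of these 2 classes was not resolved. The log2 ratio of the macrophage-like class to all other cells was 1.73, against 0.75 with at most 5% mitochondrial UMIs and 0.98 with at least 1500 UMIs per cell, and the mature neutrophil-like class was then the highest. The classical monocyte-like class followed at 1466 CPM, the basophil-like class at 1302, the natural killer-like class at 1064 and the immature neutrophil-like class at 1046. Plasmacytoid dendritic-like (491 CPM) and osteoclast-like cells (469 CPM) formed a middle group with overlapping intervals, and stem and progenitor-like (300 CPM) and granulocyte-monocyte progenitor-like cells (292 CPM) came below them. The B lineage, plasma and erythroid classes lay between 10.2 and 22.2 CPM. The thinned share of cells with an Fcer1g UMI was 75.7% in the macrophage-like class, 77.7% in the mature neutrophil-like class and 76.1% in the classical monocyte-like class.

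Among lymphocytes other than B cells, Fcer1g was highest where natural killer markers were present. The natural killer-like class (95 cells) had an Fcer1g UMI in all 95 cells. The T-like class as a whole had 204 CPM (177 to 235). Among its 209 cells, the 100 with 5 or more UMIs of natural killer markers had 323 CPM (276 to 375), the 57 with 1 to 4 had 49.4 CPM (25.5 to 86.3) and the 52 with none had 77.0 CPM (43.1 to 127). All 3 groups contained Cd3 UMIs (789, 349 and 218), so the 100 cells as a group carried T cell and natural killer markers together. The intervals of the 2 groups with fewer natural killer UMIs overlapped. Fcgr3, the partner of this chain on natural killer cells, was at 58.6 CPM (39.2 to 84.1) in the natural killer-like class and had only 6 UMIs in the whole T-like class.

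Fcgr1, the high-affinity IgG receptor, was found almost only in 2 classes. The macrophage-like class had 57 UMIs (83.2 CPM, 63.0 to 108) and the classical monocyte-like class had 180 UMIs (29.6 CPM, 25.4 to 34.2), and these intervals did not overlap. No other class exceeded 3 UMIs. The 1515 mature neutrophil-like cells had 0, where 3 UMIs would be 0.652 CPM. The ratio of the macrophage-like class to all other cells was 30.03 (22.0 to 40.5), and its thinned share was 8.70%. When barcodes of at least 1500 UMIs were clustered anew, the macrophage-like class held 103 cells with 44 Fcgr1 UMIs, at 36.1 CPM (26.2 to 48.5). This interval overlaps the classical monocyte-like one of the main clustering. The class of 103 cells is not the main one without its shallow cells, since its cells together held more UMIs. The log2 ratio was 4.91 in the main clustering, 3.68 there and 4.21 with at most 5% mitochondrial UMIs. All 118 classical monocyte-like cells with an Fcgr1 UMI also had an Fcer1g UMI, in a class where 99.4% of cells had one.

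Fcgr3, the low-affinity activating IgG receptor, was highest in the basophil-like class at 423 CPM (365 to 489), 5.73 times all other cells (4.93 to 6.64). The mature neutrophil-like class had 298 CPM (282 to 314) as a whole. Its later cluster, with Cxcr2 among the leading genes and described below, was at a level within the basophil-like interval. The classical monocyte-like (221 CPM) and macrophage-like (204 CPM) classes followed and overlapped each other. Granulocyte-monocyte progenitor-like (120 CPM) and immature neutrophil-like cells (99.3 CPM) came next. On the thinned scale 38.1% (26.1 to 51.2) of basophil-like and 26.9% (24.6 to 29.2) of mature neutrophil-like cells had a UMI, with overlapping intervals. The share was 19.3% in classical monocyte-like and 0.417% in late erythroid-like cells. B lineage, plasma and erythroid classes were at 2.69 CPM or less.
The summed mature neutrophil markers were at 3924 CPM in the basophil-like class (10 of 10 with a UMI), against 44628 CPM in the mature neutrophil-like class and 68.2 in the late erythroid-like class. The summed classical monocyte markers were at 869 CPM in the basophil-like class, with 8 of 10 seen, against 8260 in their own class. The summed immature neutrophil markers were at 6036 CPM in the basophil-like class, against 146670 in their own class. The part of neutrophil or monocyte RNA in the Fcgr3 level was not tested.

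Fcgr4, the activating receptor for IgG2a and IgG2b, was highest in the mature neutrophil-like class at 127 CPM (117 to 138), 11.6 times all other cells (10.3 to 12.9). That log2 ratio of 3.53 was 2.80 with at most 5% mitochondrial UMIs. Macrophage-like (43.8 CPM, 29.6 to 62.5) and classical monocyte-like cells (39.6 CPM, 34.7 to 44.9) had overlapping lower levels. Fcgr4 and Fcgr3 were not found in the same classes throughout: the basophil-like class, with the highest Fcgr3 level, had 1 Fcgr4 UMI, and the natural killer-like class had 0. Of the 1515 mature neutrophil-like cells, 269 had UMIs of both genes, 186 of Fcgr4 alone, 555 of Fcgr3 alone and 505 of neither.

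Along the neutrophil lineage Fcgr3, Fcgr4 and the gamma chain Fcer1g ended higher, and the inhibitory Fcgr2b lower, on the CPM scale. Fcgr1 had 0 UMIs in the progenitor- and mature neutrophil-like classes and 3 in the immature neutrophil-like class. The 5 clusters concerned were ordered by their markers, from granulocyte-monocyte progenitor-like cells (led by Elane) through 2 immature neutrophil-like clusters (Camp, then Ltf among the leading genes) to 2 mature neutrophil-like clusters (Mmp8, then Cxcr2). Fcer1g was at 292, 870, 1422, 1581 and 1658 CPM in that order. Fcgr4 was at 8.42, 22.3, 38.1, 104 and 150 CPM. Both increased at every step, although for Fcer1g the intervals of the last 2 clusters overlapped.
Fcgr3 was at 120, 82.4, 135, 205 and 392 CPM, so it was lower in the first immature cluster than in the progenitors before it was higher again. Fcgr2b was at 50.9, 43.1, 27.7, 17.2 and 13.6 CPM. Neighbouring Fcgr2b intervals were separate only between the 2 immature clusters, but the ends of the series were far apart.
Median depth fell along the same clusters from 18423 to 1989 UMIs per cell, and counts per cell gave another picture. Fcgr3 was at 2.32 UMIs per cell in the progenitors and then at 1.105, 0.835, 0.934 and 0.888, so its counts per cell did not increase with its CPM. Fcer1g per cell peaked in the first immature cluster at 11.7 and was 3.76 in the last. Fcgr4 per cell was 0.163, 0.298, 0.235, 0.475 and 0.339, and Fcgr2b per cell dropped from 0.986 to 0.0309. From the progenitors to the last mature cluster, Fcgr4 was thus higher and Fcgr2b lower on both scales. Fcer1g and Fcgr3 were higher by CPM and lower per cell.

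**Figure D2:**
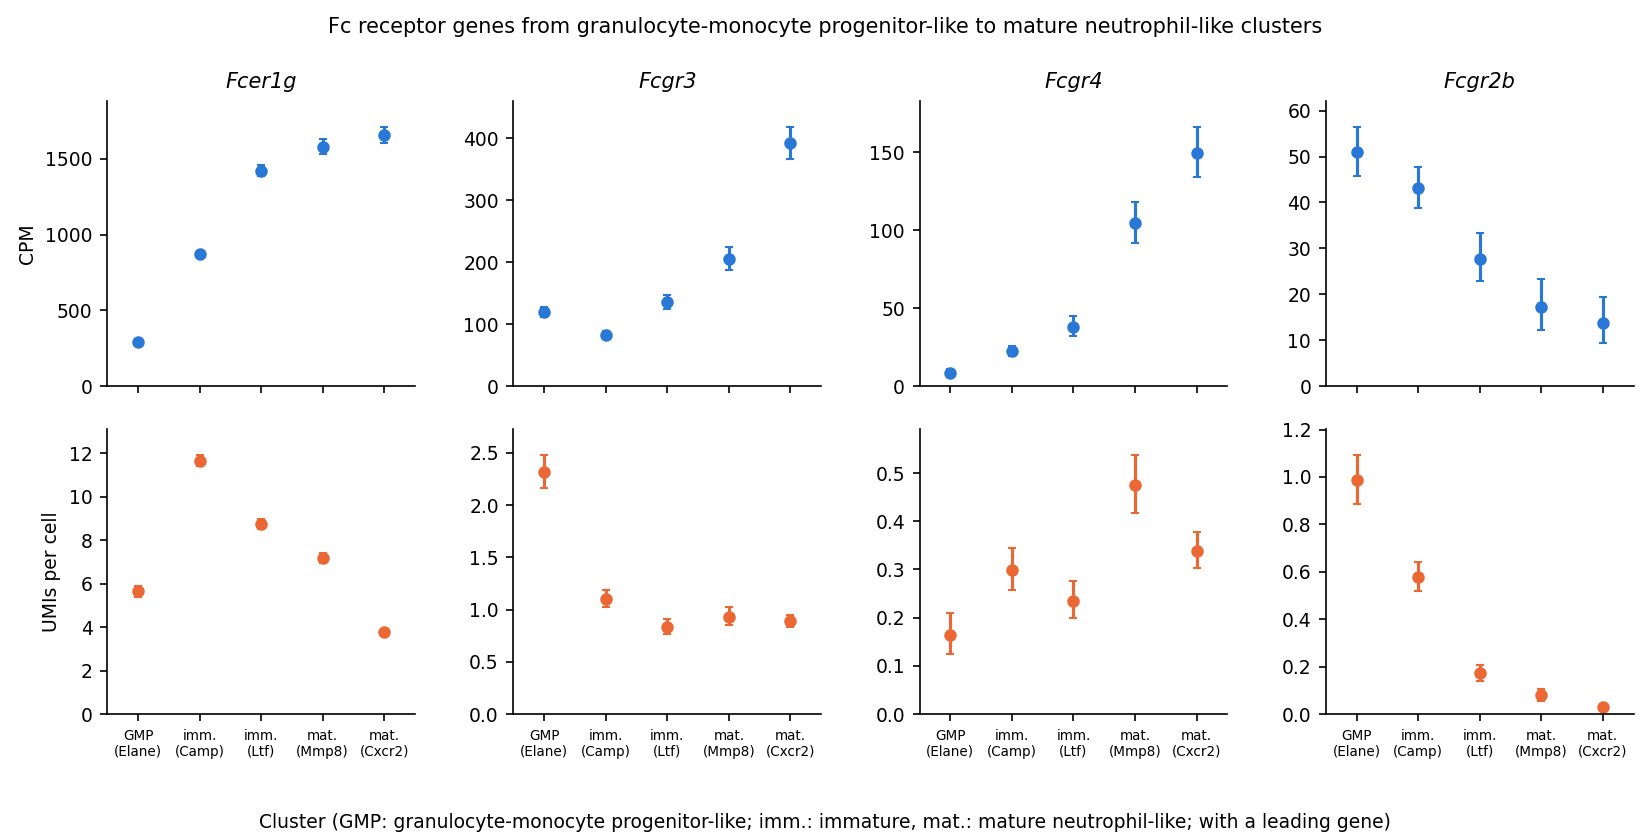
Fcer1g, Fcgr3, Fcgr4 and Fcgr2b in 5 clusters ordered by neutrophil markers, as CPM (upper row) and as UMIs per cell (lower row), with exact 95% Poisson intervals for counting error. Fcgr2b goes down in both rows, while Fcgr3 goes from 120 to 392 CPM but from 2.32 to 0.888 UMIs per cell.

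Fcgr2b, the inhibitory receptor, was shared between myeloid and B cells. The classical monocyte-like class had 123 CPM (114 to 132), the macrophage-like class 110 (86.2 to 137) and the basophil-like class 106 (78.2 to 142), with overlapping intervals. The mature B-like class had 66.4 CPM (57.9 to 75.7), the small pre-B-like class 41.8 and the pro-B and large pre-B-like class 31.7. The classical monocyte-like level was 4.15 times that of all other cells (3.81 to 4.52), and the thinned share there was 12.7%. Erythroid-like and T-like classes had 3.12 CPM or less.

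The balance of inhibitory to activating RNA was read as the share of Fcgr2b among the UMIs of Fcgr2b and Fcgr3 together, which is comparable between classes but is not a ratio of molecules. It was 4.93% (3.87 to 6.18) in the mature neutrophil-like class and 20.1% (15.1 to 25.8) in the basophil-like class. With doublets kept the mature neutrophil-like share was 9.11%. It lay between 27.8% and 36.4% in the immature neutrophil-, granulocyte-monocyte progenitor-, macrophage-, classical monocyte- and stem and progenitor-like classes. In the 3 B lineage classes that could be scored it was 96.1% to 96.7%. Osteoclast-like cells had 22 Fcgr2b and 2 Fcgr3 UMIs, a share of 91.7% (73.0 to 99.0), and plasmacytoid dendritic-like cells had 18 and 4, a share of 81.8% (59.7 to 94.8). Both intervals lay above those of the monocyte- and macrophage-like classes, on few UMIs. Summed mature B markers were at 1563 CPM in the osteoclast-like and 2905 CPM in the plasmacytoid dendritic-like class, against 11453 in the mature B-like class. This sum was also high outside B cells, at 11415 CPM in the macrophage-like and 3926 CPM in the classical monocyte-like class. The part of B cell RNA in these shares was not tested. Fcmr had 3 UMIs in the osteoclast-like and 7 in the plasmacytoid dendritic-like class. Both receptors were often found in the same cell: of 623 classical monocyte-like cells, 293 had UMIs of both, 80 of Fcgr2b alone, 165 of Fcgr3 alone and 85 of neither.

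**Figure D3:**
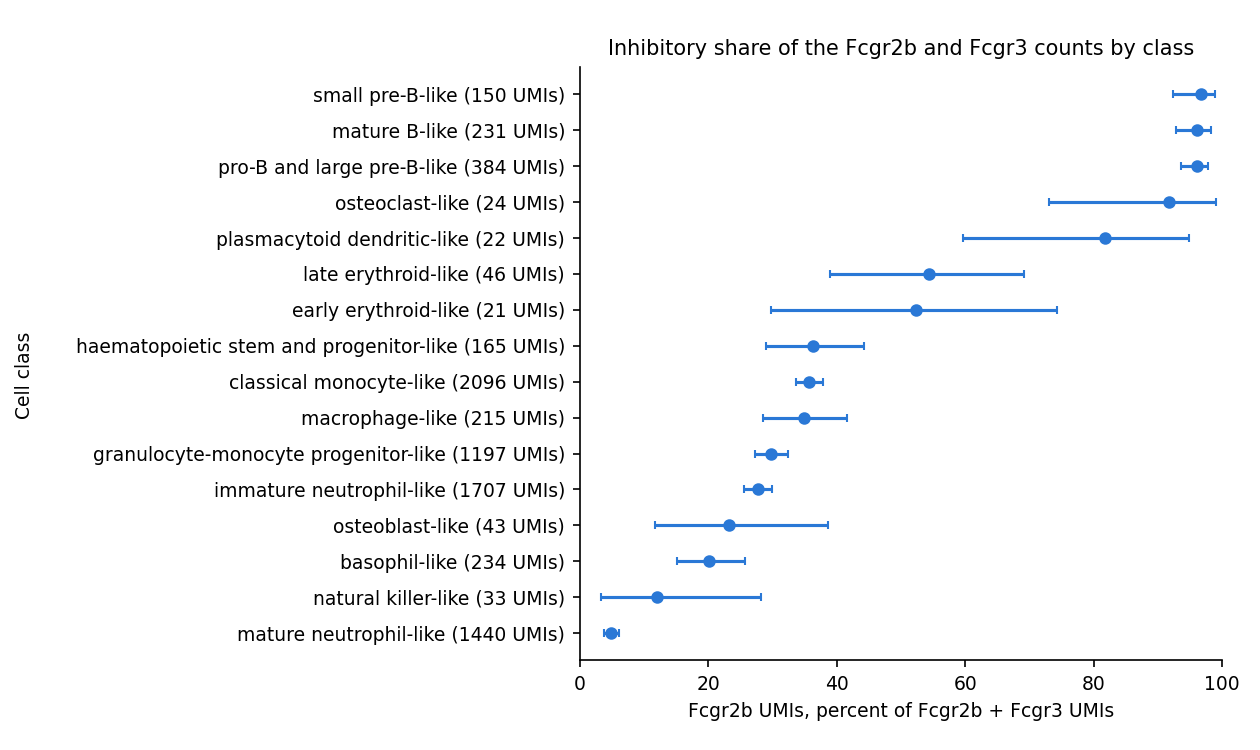
Share of Fcgr2b among Fcgr2b and Fcgr3 UMIs in each class with at least 20 such UMIs (horizontal axis, percent), with exact 95% Clopper-Pearson intervals and the number of UMIs in brackets. The mature neutrophil-like class is lowest at 4.93% (9.11% with doublets kept), and the B lineage, osteoclast- and plasmacytoid dendritic-like classes are all above 80%.

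The classical monocyte-like class was a mixture for several of these genes. At a finer clustering (resolution 2.0) its 623 cells divided into 499 that kept the name, 66 conventional dendritic-like cells and 58 that stayed unnamed. The 58 stayed unnamed because their leading genes held more markers of non-classical than of classical monocytes. They were led by Adgre4, Ace, Ear2, Cx3cr1 and Treml4, genes known from non-classical (patrolling) monocytes, with Ly6c2 at 58.3 CPM against 1928 in the 499. Fcgr4 was at 377 CPM (310 to 455) in the 58 cells, 49.0 (32.3 to 71.3) in the dendritic-like cells and 19.8 (16.2 to 24.0) in the 499. The 58 cells thus held 110 of the 241 Fcgr4 UMIs of the class, at a level above that of the mature neutrophil-like class. Their thinned share with Fcgr4 was 34.5%, against 4.04% in the 499.
Fcgr2b was highest in the conventional dendritic-like cells at 267 CPM (225 to 314), against 109 in the 499 and 103 in the 58. Fcgr3 had the reverse order in the first 2, with 83.5 CPM in the dendritic-like cells and 240 in the 499. The Fcgr2b share was 76.2% (69.5 to 82.0) in the dendritic-like cells, 42.9% in the 58 and 31.2% in the 499. Fcgr1 was at 23.6, 24.0 and 30.5 CPM in the dendritic-like, unnamed and classical cells, with overlapping intervals. Fcer1g was at 1842 CPM in the 58 cells, 1484 in the 499 and 1100 in the dendritic-like cells.

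**Figure D4:**
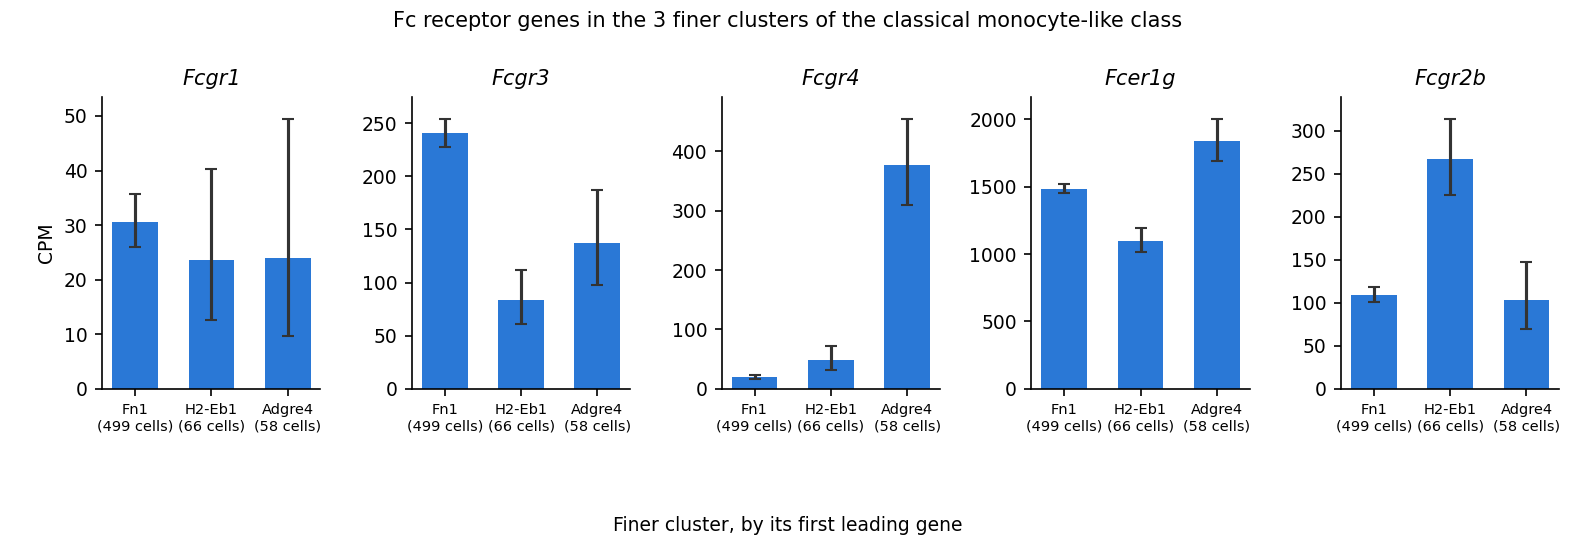
Levels of 5 Fc receptor genes (CPM, with exact 95% Poisson intervals) in the 3 finer clusters of the classical monocyte-like class, named by their first leading gene: Fn1 (499 classical monocyte-like cells), H2-Eb1 (66 conventional dendritic-like cells) and Adgre4 (58 unnamed cells). Fcgr4 is highest in the Adgre4 cluster at 377 CPM and Fcgr2b in the H2-Eb1 cluster at 267 CPM.

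Fcer1a, the IgE-binding chain of the high-affinity IgE receptor, marked 1 class. The basophil-like class (65 cells, 10 of its fixed markers raised, among them Mcpt8 and Prss34) held 328 of the 329 UMIs, at 743 CPM (664 to 828). The remaining UMI was in the T-like class, and the ratio to all other cells was 52692 with a counting interval from 9391 to 2087480. As a log2 ratio this was 15.7, against 11.3 with at most 5% mitochondrial UMIs. Of the 65 cells, 47 (72.3%) had an Fcer1a UMI, and all 47 also had an Fcer1g UMI. The thinned share was 33.3%. The third chain of this receptor, Ms4a2, was at 899 CPM in the same class and 1.18 in all other cells, so all 3 chains were present there. No mast-like class was found, and 2 of 7 mast markers had a UMI in the basophil-like class. Basophil-like cells were also the class with the highest Fcgr3 level, and 51 of the 65 had UMIs of Fcgr3 and Fcer1g together.

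Fcmr and Fcer2a marked the B lineage at different points. Fcmr was at 579 CPM (554 to 606) in the mature B-like class, 48.8 times all other cells (45.0 to 53.1), at 97.2 CPM (87.1 to 108) in the small pre-B-like class and at 7.91 CPM in the pro-B and large pre-B-like class. Fcer2a was at 164 CPM (151 to 178) in the mature B-like class, 81.0 times all other cells (67.1 to 98.3), and at 4.33 and 1.89 CPM in the 2 earlier classes. With doublets kept the Fcer2a log2 ratio was 5.49 in place of 6.34, and by the mean of per-cell CPM that of Fcmr was 4.83 in place of 5.61. Thinned shares in the mature B-like class were 42.4% for Fcmr and 13.8% for Fcer2a, against 0.834% and 0.417% in late erythroid-like cells. Plasma-like cells had 7 Fcmr UMIs and 1 Fcer2a UMI, levels of 7.76 and 1.11 CPM. Late erythroid-like cells were at 11.1 and 3.24 CPM, but they include a cluster with mature B markers that is described below. Early erythroid-like cells were at 7.35 and 0.551 CPM. Of the 975 mature B-like cells, 216 had UMIs of both genes, 481 of Fcmr alone, 76 of Fcer2a alone and 202 of neither.
The finer clustering drew the classes differently. The first of its 3 small pre-B-like clusters (713 cells) lay wholly in the pro-B and large pre-B-like class of the main clustering, and 363 of its 448 immature B-like cells lay in the small pre-B-like class, whose Fcmr level of 97.2 CPM they are part of. The 3 small pre-B-like clusters had Fcmr at 10.1, 41.8 and 91.6 CPM, the immature B-like cluster had 287 CPM (260 to 317), and the 2 mature B-like clusters had 619 and 546. Fcer2a was at 2.29 CPM in the first of these clusters. It had 0 UMIs in the next 2, where 3 UMIs would be 2.16 and 2.89 CPM. Its level was 20.6 CPM (13.8 to 29.6) in the immature B-like cluster, and 142 and 218 CPM in the 2 mature B-like clusters. In the immature B-like cluster Fcmr was thus well above every earlier cluster, while Fcer2a was still low against both mature clusters.
The 2 mature B-like clusters differed in Fcer2a and Fcgr2b. The one led by Egr3 and Egr1, immediate-early genes, had more Fcmr (619 CPM, 579 to 661, against 546, 510 to 585) and less Fcer2a (142, 123 to 163, against 218, 195 to 243). For Fcmr the intervals overlapped narrowly. Fcgr2b was lower in the same Egr3 cluster, at 42.0 CPM (32.1 to 54.1) against 85.4 (71.4 to 101). The mature B-like values differed when barcodes with at most 5% mitochondrial UMIs, in place of 10%, were clustered anew. The class then held 150 cells, with 85 Fcer2a UMIs at 63.0 CPM and 240 Fcmr UMIs at 178 CPM. Its cells held more UMIs on average than those of the main class, and how far the cells are the same was not examined.

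**Figure D5:**
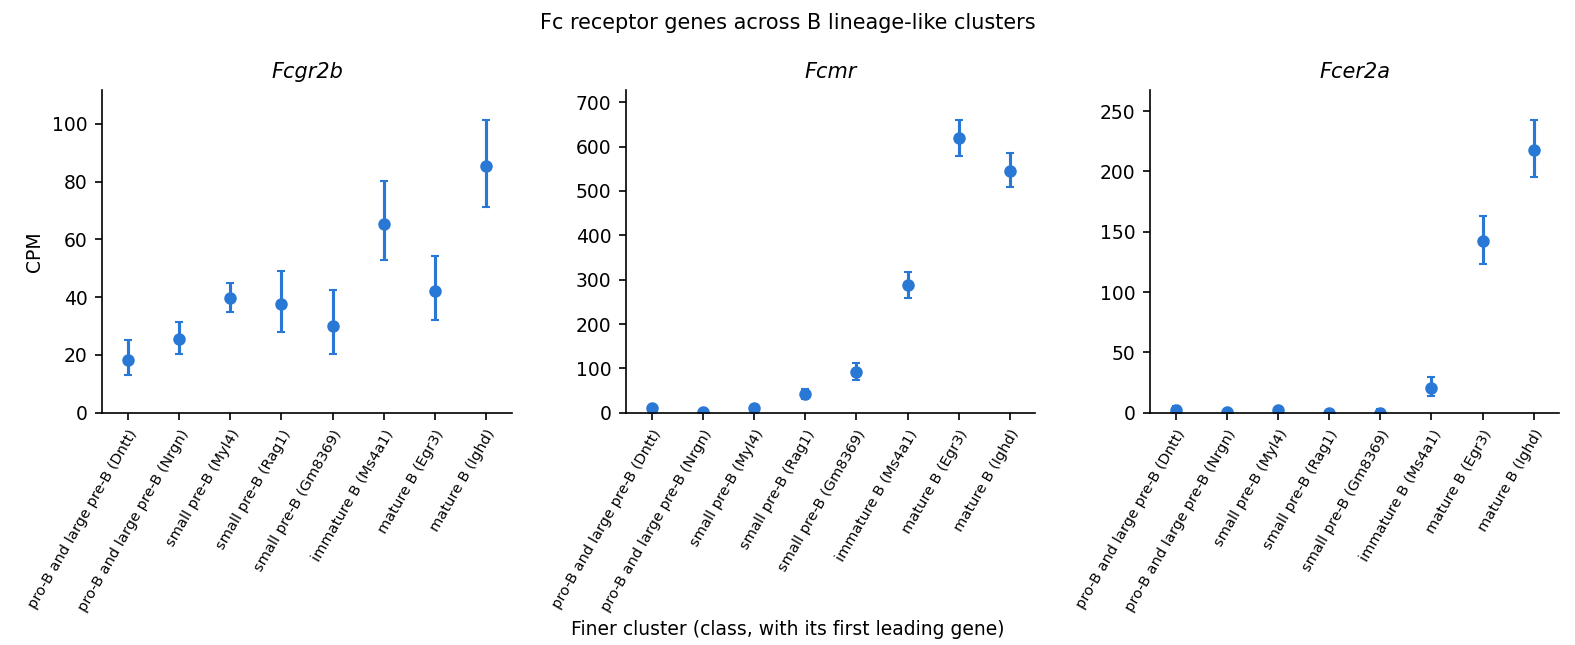
Fcgr2b, Fcmr and Fcer2a (CPM, with exact 95% Poisson intervals) in 8 finer B lineage-like clusters, labelled by class and first leading gene. Fcmr is already at 287 CPM in the immature B-like cluster, where Fcer2a is at 20.6 CPM, and the mature B-like cluster led by Egr3 has less Fcgr2b and Fcer2a than the one led by Ighd.

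Against all other cells, a gene was counted as higher or lower in a class at 2-fold, among 13603 genes with at least 20 UMIs. In the classical monocyte-like class 5 of the 8 receptors were higher (Fcgr1, Fcgr2b, Fcgr3, Fcgr4 and Fcer1g), against 13.2% of all genes, and 3 were lower, against 22.1%. The same 5 were higher in the macrophage-like class, against 18.8%, and 2 were lower, against 15.6%. Fcer1g there no longer reached 2-fold with at most 5% mitochondrial UMIs or with at least 1500 UMIs per cell. In the mature neutrophil-like class 3 were higher (Fcgr3, Fcgr4 and Fcer1g), against 11.7%, and 5 were lower, against 54.8%, so the lower count is near what all genes showed.
In the basophil-like class 4 were higher (Fcgr2b, Fcgr3, Fcer1a and Fcer1g), against 14.0%, and 3 were lower, against 15.4%. In the natural killer-like class Fcer1g alone was higher, against 17.7%, and 4 were lower, against 15.2%. In the mature B-like class Fcer2a and Fcmr were higher, against 19.0%, and 5 were lower, against 23.9%. Some lower calls rest on 0 UMIs, such as Fcer1a and Fcgr4 in the natural killer-like class, where 3 UMIs would be 6.06 CPM. The scale mattered for these counts. With the 50 most abundant genes left out of the totals, 5 of the 6 classes shifted by a median of -0.27 to -0.33 on the log2 scale, and the mature neutrophil-like class by 0.08. The split of higher to lower genes moved from 1790 and 3009 to 1276 and 3887 in the classical monocyte-like class, from 2555 and 2120 to 2049 and 2854 in the macrophage-like class, and from 1902 and 2098 to 1391 and 2874 in the basophil-like class. It moved from 2401 and 2070 to 1738 and 2710 in the natural killer-like class and from 2583 and 3247 to 1596 and 3733 in the mature B-like class. Among the receptors, Fcgr4 in the classical monocyte-like class and Fcer1g in the natural killer-like class then no longer reached 2-fold higher, and Fcer2a became lower in the latter. Several of these receptors are known markers of such cells, so these counts are descriptions only.

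The molecules that work with the receptors were followed in 6 lists with 46 genes, of which 41 had enough UMIs. In the mature neutrophil-like class all 4 measured receptors that share the Fcer1g chain were higher, against 11.7% of all genes, with a list median of 3.15 on the log2 scale against -1.27 over all genes. Among them Clec4d, a lectin for mycobacterial glycolipid, was at 893 CPM against 25.9 in all other cells, and Clec4e (Mincle) at 692 against 64.1. The related adaptor Tyrobp (DAP12) was at 3432 against 580. Of the complement receptors, 3 of 5 were higher there, against 11.7% of all genes, and 1 lower, against 54.8% (median 1.92), with C5ar1 at 366 against 34.6 CPM.
In the classical monocyte-like class 6 of 13 activating kinases and adaptors were higher, against 13.2% of all genes, and 2 lower, against 22.1%, with a median of 1.00 against -0.07 over all genes. The adaptor Lat2 was at 83.3 against 15.5 CPM and the kinase Lyn at 340 against 123. The macrophage-like class had 6 of these 13 higher, against 18.8%, and 0 lower, against 15.6% (median 0.78 against 0.13). It also had Fcrls, an Fc receptor-like gene, at 46.7 against 0.099 CPM, Fcgrt, the neonatal Fc receptor that recycles IgG, at 237 against 5.997, and the complement receptor C3ar1 at 120 against 1.33.
In the basophil-like class 5 of the 13 kinases and adaptors were higher, against 14.0% of all genes, and 3 lower, against 15.4% (median 0.42 against 0.15). The higher ones included Lat2 at 310 against 19.4 CPM, Lat at 58.9 against 5.95 and Gab2 at 104 against 12.1. The kinase Syk was lower, at 95.1 against 225. Cd247, the zeta chain, was at 106 CPM in the T-like class. In the natural killer-like class it was at 82.8 against 1.89 CPM in all other cells. There, 3 of the 4 measured receptors that share the Fcer1g chain were lower, against 15.2% of all genes (median -2.62 against 0.28).
The mature B-like class had 3 of 8 inhibitory signalling genes higher, against 19.0% of all genes, and 1 lower, against 23.9% (median 0.81 against 0.21). They were Cblb, the phosphatase Inpp5d (394 against 113 CPM), which acts downstream of Fcgr2b, and the phosphatase Ptpn6 (311 against 108). Fcrl1, a B cell Fc receptor-like gene, was at 132 against 5.03 CPM in that class. All 4 receptor complex chains were lower there, against 23.9%, with a median of -3.26, or -2.75 with the 1 chain at 0 UMIs (Ms4a2) set to the floor of 3 counts.

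For each receptor the 3 genes with the most similar pattern were taken by Pearson's r of log2(CPM + 10) over the 29 clusters of at least 30 cells, which share 1 library. Fcer1g was most like Tyrobp (0.97), Myo1f and Hpcal1. Fcgr1 was most like Clec4b1 (0.99), Msr1 and Clec4a1. Fcgr3 was most like Lst1 (0.93), Lilrb4a and Osm, and Fcgr4 like Pilra (0.96), Cd33 and Nat8l.
Fcer1a was most like Cyp11a1 (0.99), Prss34 and Mcpt8, the last 2 being basophil proteases. Fcmr was most like Ms4a1 (0.95), Scd1 and Ffar1, and Fcer2a like Gm31243 (0.95), H2-DMb2 and Cr2. Fcgr2b, the one gene spread over myeloid and B cells, had the weakest best match, Ssfa2 at 0.82, and was also like Nlrc4 (0.80).

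Some classes carried receptor RNA beside markers of other cells. The osteoblast-like class had Fcer1g at 306 CPM in 29.5% of its cells and Fcgr3 at 45.7 CPM. The summed mature neutrophil markers were at 3735 CPM in this class, against 127 to 199 CPM in the 3 B lineage classes named above. At the finer clustering, 108 cells of the class fell in a marrow stromal-like cluster of 115 cells, which as a whole had Fcer1g at 521 CPM and Fcgr3 at 84.3 CPM. The other 14 cells formed an osteoblast-like cluster, which had Fcer1g at 111 CPM and 0 Fcgr3 UMIs. The part of neutrophil RNA in these values was not tested. In an unnamed cluster of 57 cells with erythroid markers, Fcer1g was at 636 CPM beside summed immature neutrophil markers of 67452 CPM. One late erythroid-like cluster of 115 cells had Fcmr at 55.9 and Fcer2a at 16.4 CPM, beside summed mature B markers of 1292 CPM, against 26.1 to 149 CPM in the 3 other late erythroid-like clusters. Whether B cell RNA accounts for these levels was not tested.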

How the data were processed

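The deposited matrix holds raw UMI counts per gene and cell barcode, which the authors made with Cell Ranger 3.1.0 on the mouse genome mm10, per the submitters' processing notes, which also name Seurat 3. The labels do not say whether the kit reads 3′ or 5′ ends. The 4 sample records share this 1 matrix. Barcodes with under 200 genes (1335) or over 10% mitochondrial UMIs (2672) were left out, and 607 of the 11007 remaining barcodes (5.51%) were removed as doublets called by Scrublet. Cells were clustered with scanpy 1.11.5 (2000 variable genes without the receptors and their partner genes, 30 components, 15 neighbours, Leiden resolution 1.0). A cluster took a name when at least 3 markers, and at least 50% of the type's markers, were 2 times higher than elsewhere. Fewer than 4 markers of any type of another lineage, beyond those shared with its own type, could be raised. Progenitor types did not count in this last rule, and clusters named as progenitors were exempt from it. It stayed unnamed where its 10 leading genes held more markers of another type, or where its median depth was under 0.333 of the library's with no own marker among those genes. The rules on 50% and on mixed lineages were added after the clusters were seen.

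CPM came from summed counts with exact Poisson intervals, shares from Clopper-Pearson intervals and ratios from exact conditional binomial intervals. Genes with at least 20 UMIs were compared at 2-fold with 0.5 counts added, so calls on 0 UMIs depend on that addition, and 3 counts served as the floor. With 1 library no test was run. The receptors, the lists and the marker types were chosen with earlier results of these data known. Named genes are the 8 receptors, listed partners past 2-fold, and the 3 most similar genes each, of which 1 is not reported here. Scripts were tested on simulated data. Coordinates come from GENCODE M21 on GRCm38 and promoters from RefSeq on GRCm38.p6.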

Additional observations from a re-analysis of the deposited data

How the results depend on the processing

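None of the 8 log2 ratios given next changed sign in any setting, but the highest class changed for Fcgr2b and Fcer1g in the settings named below. Without the 50 most abundant genes the split of higher to lower genes reversed in 2 classes. It moved from 2555 and 2120 to 2049 and 2854 in macrophage-like cells, and from 2401 and 2070 to 1738 and 2710 in natural killer-like cells. The main log2 ratios of the highest class to all other cells were 4.91 for Fcgr1, 2.05 for Fcgr2b, 2.52 for Fcgr3 and 3.53 for Fcgr4. They were 15.7 for Fcer1a, 1.73 for Fcer1g, 6.34 for Fcer2a and 5.61 for Fcmr. The ratios and shares listed next lay outside their counting intervals, while the counts of genes have no such interval. The cause of these shifts was not tested. At resolution 0.5 Fcgr4 was 3.32 and the Fcgr2b share was 33.3% in immature and 3.32% in mature neutrophil-like cells, and at resolution 2.0 Fcgr2b was 1.77 and Fcmr 5.27. With at most 5% mitochondrial UMIs all 8 moved: Fcgr1 4.21, Fcgr2b 2.50, Fcgr3 2.24, Fcgr4 2.80, Fcer1a 11.3, Fcer1g 0.75, Fcer2a 5.82 and Fcmr 5.48. With at most 30% Fcer1g was 1.85. With at least 1500 UMIs per cell Fcgr1 was 3.68, Fcer1g 0.98 and Fcmr 6.08. With doublets kept Fcgr4 was 3.05, Fcer2a 5.49 and Fcmr 5.32, and the Fcgr2b share was 9.11% in mature neutrophil-like and 93.4% in pro-B and large pre-B-like cells. Without the 50 most abundant genes Fcgr2b was 1.72, Fcgr3 2.20, Fcer1g 1.46, Fcer2a 6.04 and Fcmr 5.31, and 1596 genes were higher in mature B-like cells (main 2583). By the mean of per-cell CPM Fcgr2b was 2.36 and Fcmr 4.83. With no minimum on UMIs 2688 genes were higher in classical monocyte-like cells (main 1790). Fcgr2b was highest in conventional dendritic-like cells at resolution 2.0, and Fcer1g in mature neutrophil-like cells there, with at most 5% mitochondrial UMIs and with at least 1500 UMIs. Clustering with the receptors included, and naming without the 2 added rules (chosen after seeing the data), left all 8 ratios within their intervals. Thinned shares change with the number of UMIs by construction. No paired analysis was possible because the 4 records are 1 matrix, and leaving out a record could not be run for the same reason. Few UMIs limit Fcgr1 (253 in all), and few cells limit the osteoclast- (34), plasma- (49) and basophil-like (65) classes.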
